A study of Caenorhabditis elegans with 4 samples.

Results

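The regions described here are the stretches of chromosome III at which the transcription factor LSY-2 was detected by chromatin immunoprecipitation and sequencing (ChIP-seq) in Caenorhabditis elegans. They are all entries on chromosome III in the combined peak list of the study, 1200 in number, with intervals listed more than once counted once. That left 1198 distinct regions of 6048 on the 6 nuclear chromosomes, or 19.8%, on a chromosome that makes up 13.7% of the nuclear span. The regions were taken by chromosome name alone, and III was singled out with earlier results of these data known.

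All samples came from strain OP367, which has the mutation unc-119(ed3) and the transgene wgIs367, a copy of lsy-2 fused to TY1, EGFP and FLAG tags beside unc-119. They were hermaphrodites collected as fed L1 larvae and grown at 20 °C. The study holds 2 LSY-2 ChIP samples, collected with antibodies against the fluorescent tag, and 2 input samples of the same strain, which are not analysed here. The transgene was introduced by bombardment, and ChIP and input worms carry it alike; a sample of worms without it is not used here. The unc-119 copy comes from a gene that RefSeq's table places on III, relative to which regions could not be placed. Worms were taken whole, so the values are sums over all cell types, and regions bound in few cells cannot be told apart from regions bound weakly in many. Nothing in the labels tells if separate cultures gave the replicates, so differences between them may be technical.

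LSY-2 is a nuclear protein with zinc fingers of the C2H2 type, known from genetic screens for making the left ASE taste neuron differ from the right one, where it acts upstream of the microRNA lsy-6. Chromosome III is an autosome. Worm autosomes have a central part that is rich in broadly expressed and essential genes and recombines little, and arms that hold more repeats and recombine more. ChIP-seq enriches the DNA fragments crosslinked to a factor, and a peak caller marks the places where such fragments pile up.

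Positions are in the WormBase WS220 build. Each entry has a number in its name, called its rank here, and a score, deposited by the authors without a named scale. How the number was made is not recorded. It is read with 1 as the best because in each list the entries that tie at the highest score hold exactly the first numbers, 1 to 4462 in the combined list, 1 to 4909 in replicate 1 and 1 to 3015 in replicate 2. The order within these ties, which includes the best 100 and the best 1516, rests on the number alone. Below them the score fell with the number over whole replicate lists (Spearman's rho -0.999 in replicate 1 and -0.997 in replicate 2). It fell only loosely in the combined list (-0.48, and -0.53 over 314 regions of III), where it rises with the number within steps. Such rises were also seen on III in both replicate lists, just below the ties. In replicate 2 the score was 3.319 at rank 3130, 3.415 at rank 3900 and 3.468 at rank 4404. Within these steps the score does not back the reading of a low number as strong. On III, 884 of 1198 regions (73.8%) shared the highest score, near the background of 73.5% over all regions, so strength is given as rank, and "strong" and "weak" mean a low and a high number. The regions had scores from 3.95 down to 3.23. The 2 replicate lists held 5799 and 5698 entries on III in replicates 1 and 2, within lists of 30000 entries each. The lists hold no read counts, so the depth is unknown. An exact permutation test on values from 2 replicates could not pass the usual threshold, and no test was run. All comparisons of III with other chromosomes are therefore descriptions, some from both replicate lists and some from the combined list alone, which has no replicate error.

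III held a larger share of the strongest LSY-2 regions than of all regions. Of the 100 best-ranked combined regions, 34 were on III, against 22 on I, 19 on IV, 16 on II, 5 on V and 4 on X. The 95% Wilson interval for the share on III was 25.5 to 43.7%, above the 19.8% that III holds of all regions. The cut at 100 and the choice of III were made with the lists or earlier results known, so this is a description and not a test. Put the other way, 2.84% of the regions of III were among the best 100, against a background of 1.65% over all regions. Each replicate list gave a similar count, 32 of its best 100 entries in replicate 1 and 35 in replicate 2, and 32 of the 34 combined regions were within the best 100 of both. Per Mb, III held 2.95 times as many of the best 100 entries as the other 5 chromosomes pooled in replicate 1. In replicate 2 it held 3.38 times as many. The single chromosomes differed widely: replicates 1 and 2 gave 2.32 and 2.54 per Mb on III and 1.59 and 1.46 on I. IV gave 1.09 and 1.03, II 0.982 and 1.11, V 0.287 and 0.191, and X 0.226 in both.

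The excess on III was smaller among weaker calls and then nearly level. For ranks 101 to 500 the ratio of entries per Mb on III to that on the other chromosomes was 1.78 in replicate 1 and 1.91 in replicate 2. For ranks 501 to 1516 it was 1.50 and 1.43, for ranks 1517 to 6064 it was 1.50 and 1.58, and for ranks 6065 to 20000 it was 1.51 and 1.49. Entries beyond rank 20000 still had ratios of 1.48 and 1.37. In both replicates the first 2 of these groups stood above the other 4, while the order among the other 4 differed between the replicates.

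**Figure D1:**
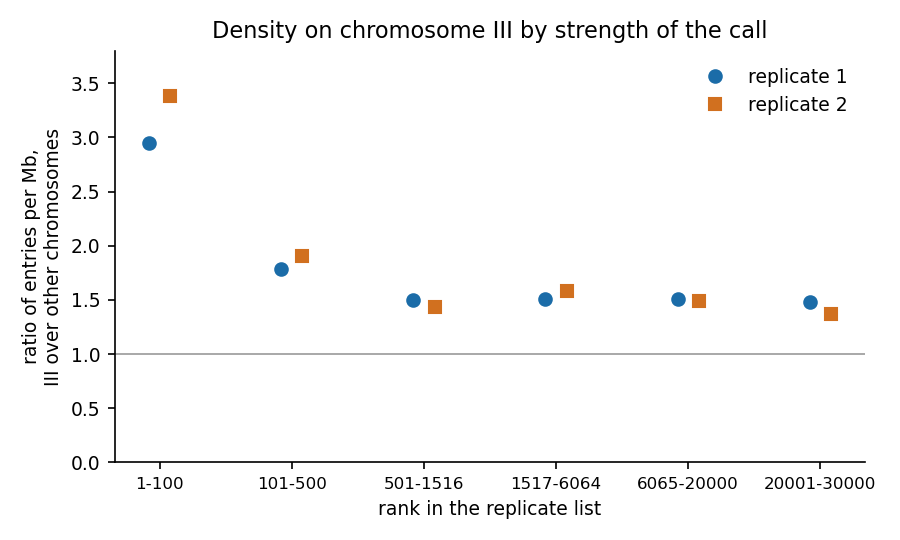
Ratio of entries per Mb on chromosome III to entries per Mb on the other 5 nuclear chromosomes (vertical axis), for 6 groups of rank in the replicate list (horizontal axis), with 1 point for each replicate. The ratio was 2.95 and 3.38 for ranks 1 to 100 and between 1.37 and 1.58 for the 4 groups beyond rank 500; the grey line marks equal density.

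The 34 regions of III among the best 100 were spread over the whole chromosome. With III divided into 3 segments of equal length, 4.59 Mb each, 11 lay in the left segment, 11 in the central one and 12 in the right one. They fell into 12 of the 14 bins of 1 Mb. The distance between neighbours among them had a median of 279 kb, and the closest pair was 5.06 kb apart.

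The best-ranked region of III was at 12904855 to 12905344, 490 bp wide, with rank 2 overall and ranks 3 and 2 in replicates 1 and 2. It was followed by the region at 3867302 to 3867821, with rank 8 overall and ranks 7 and 10 in replicates 1 and 2. The next lay at 9765282 to 9765836, with combined rank 15 and ranks 10 and 20. These 3 lie far apart, in the right, the left and the right segment.

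The region at 4475376 to 4475868 had combined rank 16 and rank 14 in both replicates. In the middle of the chromosome, the best-ranked region was at 8903992 to 8904452, with combined rank 18 and ranks 16 and 19 in replicates 1 and 2. Next in the combined list were 9545837 to 9546298 (rank 19; 17 and 22 in replicates 1 and 2) and 12978660 to 12979129 (rank 21; 15 and 25). The last of the best 10 on III were at 13462783 to 13463238, at 6971811 to 6972270 and at 3456201 to 3456620, with combined ranks 25, 27 and 28. Their ranks were 24, 23 and 26 in replicate 1, and 28, 34 and 27 in replicate 2. Thus no region of the best 10 ranked beyond 26 in replicate 1 or beyond 34 in replicate 2. Of these 10 regions, 3 were in the left segment, 2 in the central one and 5 in the right one. All 10 shared the top score of their list in both replicates, which is why the score does not order them.

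Over all strengths, regions were densest in the middle of III. The central segment held 490 regions, or 107 per Mb, against 336 (73.2 per Mb) in the left segment and 372 (80.99 per Mb) in the right one. Among the best 6064 entries of each replicate, the central segment held 107 per Mb in replicate 1 and 110.2 per Mb in replicate 2. The left segment held 74.5 and 73.6 per Mb, and the right segment 77.1 and 83.2 per Mb, in replicates 1 and 2. The central value was above both outer values in each replicate, and the right segment was above the left one by more in replicate 2 than in replicate 1. The ratio of the central to the outer segments was 1.42 in replicate 1 and 1.41 in replicate 2, close to 1.36 and 1.45 on IV. It was 1.77 and 1.63 on I, 1.58 and 1.54 on II, 1.99 and 1.87 on V, and 0.885 and 0.899 on X.

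The outer parts of III were themselves dense. They held 75.8 and 78.4 regions per Mb in replicates 1 and 2, which was more than the central segments of IV (66.9 and 68.3 per Mb), V (61.5 and 59.6 per Mb) and X (48.4 and 47.4 per Mb). The central segments of I (104 and 99.8 per Mb) and II (84.7 and 83.9 per Mb) held more than the outer parts of III. The whole of III held 87.6 ± 1.90 regions per Mb and the other 5 chromosomes together 55.8 ± 0.254 (SD, n = 2 replicates). Taken singly, I was nearest to III with a mean of 73.99 per Mb over the replicates. II held 64.1, IV 54.6, X 51.8 and V 41.1 per Mb.

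In finer steps, the bins of 1 Mb with the most regions were those from 7 to 8 Mb (127 regions), from 8 to 9 Mb (122) and from 5 to 6 Mb (112). The bin with the fewest was that from 2 to 3 Mb, with 45. The bin from 6 to 7 Mb, between the 3 fullest, held 84. Replicates 1 and 2 held 130 and 125 of their best entries in the bin from 7 to 8 Mb and 46 and 48 in the bin from 2 to 3 Mb. The counts of the 13 whole bins rose and fell together in the replicates (Spearman's rho 0.97 over bins, a description, since both lists come from the same strain and neighbouring bins resemble each other). In no whole bin did the replicates differ by more than 16 entries. Strong regions were most numerous from 8 to 9 Mb, where 44 of the 122 regions were among the 1516 best of the genome.

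Weak calls were not densest in the central segment. Entries beyond rank 20000 numbered 121 per Mb in the central segment of replicate 1, against 146 in the left and 149 in the right segment. In replicate 2 they numbered 116 per Mb in the central segment, against 133 and 141 in the left and right ones. The bin from 7 to 8 Mb, which had the most combined regions, held 102 and 105 weak entries in replicates 1 and 2. Whole bins ranged from 101 to 179 in replicate 1 and from 98 to 155 in replicate 2, so this bin was near the low end in both. The fewest, 101 and 98, were in the bin from 0 to 1 Mb, which had only 57 combined regions. Across whole bins, Spearman's rho between combined regions and weak entries was -0.16 in replicate 1 and -0.10 in replicate 2. Across windows of 100 kb it was 0.22 and 0.21, so the 2 did not show an opposed layout in finer steps.

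**Figure D2:**
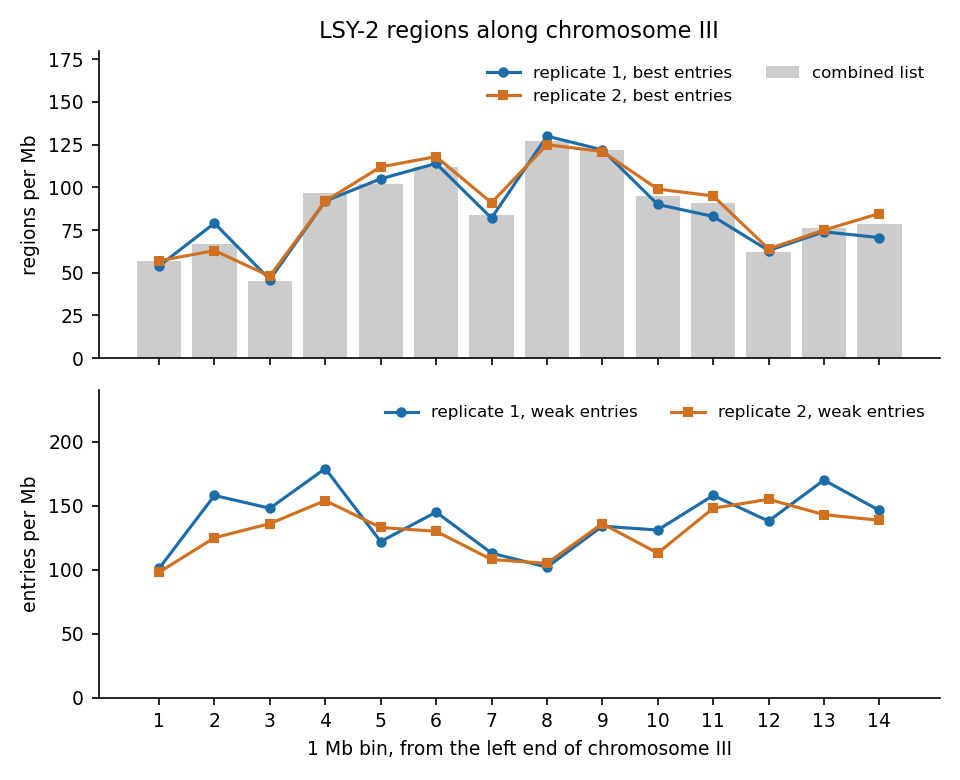
Regions per Mb in bins of 1 Mb along chromosome III, numbered from the left end (the last bin is shorter than 1 Mb). In the upper panel, bars show the combined list and lines the best 6064 entries of each replicate, highest in bins 8 and 9. In the lower panel, lines show entries beyond rank 20000, which were few in bin 1 (101 and 98) and bin 8 (102 and 105).

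Strength differed little between the segments. Of the regions of III, 323 (27.0%, 95% Wilson interval 24.5 to 29.5) were among the 1516 best-ranked of the genome, against 24.5% on the other chromosomes and a background of 25.0% over all regions. By segment the share was 26.2% (21.8 to 31.1) on the left, 28.4% (24.6 to 32.5) in the centre and 25.8% (21.6 to 30.5) on the right, with intervals that overlap widely. I gave 28.4% (25.8 to 31.1), II 27.1% (24.4 to 29.98), IV 27.1% (24.4 to 30.03), V 23.9% (21.1 to 26.8) and X 15.3% (13.1 to 17.7). The interval of III overlapped those of the other 4 autosomes and lay above that of X.

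The median distance between neighbours was shortest on III, which also has the most regions per Mb, but close pairs were about as frequent as over all regions. The median distance between neighbouring centres was 5.79 kb, against 6.62 kb on I and 7.16 kb on II. The middle 50% of the distances ran from 2.00 to 14.1 kb. Centres at most 500 bp apart were rare (17 of 1197 distances), 97 distances were between 500 bp and 1 kb, and 184 between 1 and 2 kb. A neighbouring centre within 1 kb was found for 209 regions (17.4%, 15.4 to 19.7), near the background of 18.1% over all regions. The share was 17.7% on I, 18.3% on II, 22.3% on IV, 18.0% on V and 15.3% on X. On III such regions made up 20.4% of the central segment, 15.2% of the left and 15.6% of the right one. Overlap of a region with the next one was seen 11 times.

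A neighbour within 2 kb was found for 490 regions (40.9%), against a background of 38.5% over all regions, and these included a smaller share of strong regions than those that stood alone. On III the share among the best 1516 was 23.5% (19.9 to 27.4) of 490 regions with such a neighbour and 29.4% (26.1 to 32.8) of 708 without one. The other chromosomes gave 20.3% (18.5 to 22.2) and 27.1% (25.6 to 28.8). In replicate 1 alone the shares on III were 24.2% with a neighbour and 28.3% without, and in replicate 2 they were 21.5% and 29.3%. The intervals overlapped on III in the combined list and in replicate 1. In replicate 2 they did not, with 18.3 to 25.1% for regions with a neighbour and 25.9 to 32.9% for those without.

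When regions whose centres lie within 2 kb of the next are joined into chains, III held 128 chains of 2 regions and 64 of 3 or more. The counts were 117 and 54 on I, 99 and 42 on II, 105 and 48 on IV, 90 and 41 on V, and 86 and 38 on X. These counts are not scaled for the number of regions. The longest chain had 8 regions on I and IV, 10 on II, 6 on V and 9 on X. That of III also had 8 regions and ran from 1921093 to 1929074, a stretch of 7982 bp. Its first 5 regions, ordered by position, had combined ranks 726, 2444, 462, 390 and 425, and its last 3 had ranks 5205, 5067 and 3974. All 8 had partners in both replicates: their ranks were 541, 2407, 404, 301, 531, 4085, 4836 and 3399 in replicate 1, and 1202, 2022, 574, 482, 353, 7651, 5824 and 7366 in replicate 2. So 4 strong regions lay side by side with 1 of middle rank among them and 3 weaker ones at the right end, in both replicates.

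The 3 windows of 100 kb with the most regions were at 7700001 to 7800000 with 23, at 7100001 to 7200000 with 21 and at 1900001 to 2000000 with 19, where the median window held 8. The replicates placed 26 and 23 of their best entries in the first window, 19 and 22 in the second and 20 and 16 in the third (replicates 1 and 2). The median combined rank was 2487, 2830 and 3236 in these windows, against 2962.5 over all of III, and 5, 8 and 6 of their regions were among the best 1516. The third window holds the chain of 8.

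Long stretches without a region were few on III. A total of 6 distances between neighbours were over 100 kb, against 8 on I, 10 on II, 20 on IV, 39 on V and 23 on X. III is also the shortest, with a span of 13.8 Mb against 15.1 Mb on I and 20.9 Mb on V. It has the most regions per Mb as well, and these counts are scaled for neither. The greatest on III was 133 kb, and on the other chromosomes it was between 212 and 758 kb. The 3 longest stretches on III lay at 2172119 to 2304850, at 1284954 to 1408865 and at 235458 to 343656, all in the left segment. Entries of the replicate lists lay in each. The first held 33 and 34 entries in replicates 1 and 2, the second 12 and 12, and the third 32 and 32. The best of them had ranks 6528 and 5391 in the first stretch, 9441 and 7228 in the second and 7473 and 9106 in the third. Over all of III the lists held 421 and 414 entries per Mb, and these stretches held between 96.6 and 295 per Mb. The values over all of III include 1392 and 1305 entries that lie in combined regions. The stretches were chosen for having no such region, so their lower density is in part set by that choice.

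Strong regions of III had widths of their own, and most weak ones shared a single width. Exactly 350 bp was the width of 721 regions (60.2%), against 64.4% on the other chromosomes and 63.6% of all regions. Taken singly, the other autosomes ranged from 60.2% on I to 63.2% on V, close to III, and X had 77.0%. A further 419 were narrower (34.97%, against a background of 32.4%) and 58 wider. The share of narrower regions was 34.3 to 34.9% on the other autosomes and 19.6% on X. The fixed width was rare among strong regions: 1 of the 318 regions up to rank 1500 had it, at rank 83, and from rank 4001 on it was the width of 394 of 402. Among ranks 1 to 100 the median width was 421 bp. It was 323 bp for ranks 101 to 250, 286.5 bp for ranks 251 to 500, 239 bp for ranks 501 to 1000 and 191 bp for ranks 1001 to 1500. Among ranks 1501 to 2000 it was 166 bp, and 16 of 97 regions there already had the fixed width.

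Up to rank 1500 the width and the rank had a Spearman's rho of -0.83 across 318 regions on III and of -0.78 across 1179 regions elsewhere. Stronger regions thus tended to be wider, which is a description of the calls and not of the footprint of the protein. The widths of partners in replicates 1 and 2 had a rho of 0.41 across the same regions of III. Some of these partners had a repeated width, 370 bp in replicate 1 or 320 bp in replicate 2, as at combined rank 1060. The rho thus mixes repeated widths with widths that vary. The 3 widest regions were at 8417085 to 8417910 (826 bp), at 4281857 to 4282611 (755 bp) and at 8443461 to 8444055 (595 bp), with combined ranks 143, 371 and 754. Their partners were 789, 710 and 449 bp wide in replicate 1 and 710, 538 and 246 bp wide in replicate 2. The second of these was listed more than once, with ranks 371 and 1605, as was the region at 13062272 to 13062772, with ranks 393 and 3895.

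**Figure D3:**
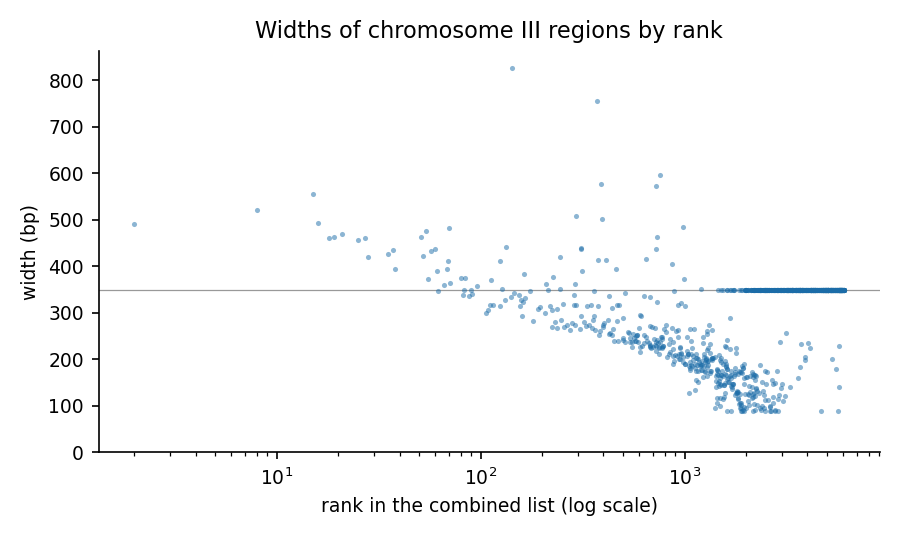
Width in bp of each of the 1198 regions of chromosome III (vertical axis) against its rank in the combined list (horizontal log axis). Widths fall with rank from a median of 421 bp among ranks 1 to 100 to 166 bp among ranks 1501 to 2000, and 721 regions, mostly of later rank, lie on the grey line at 350 bp.

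The replicates placed the regions of III nearly at the same base positions. The centres of the best-ranked partners in replicates 1 and 2 were a median of 26 bp apart, against 24 bp on I and IV, 25 bp on V, 26 bp on II and 33 bp on X. For ranks 1 to 100 the median distance was 6.75 bp, and for ranks 5001 to 6064 it was 62 bp. In the best-ranked region of III, at 12904855 to 12905344, the centres were 4 bp apart, and in that at 12978660 to 12979129 they were 1 bp apart.

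Partners in both replicates were found for 1186 regions of III (99.0%, 98.3 to 99.4), at the background of 98.9% over all regions. The source field names IDR, which weighs the replicates against each other, and how far such selection sets this share was not tested. The 12 others each lacked a partner in 1 replicate, 5 in replicate 1 and 7 in replicate 2. They had combined ranks from 3414 to 6031, and all 12 were 350 bp wide. The best of them without a partner in replicate 2 was at 6551383 to 6551732, with rank 3414. Its best-ranked replicate 1 partner, of rank 1568, was also the partner of the neighbouring combined region, which had partners in both replicates. Rank 1568 is thus not that of an entry missing from replicate 2. A replicate 1 entry of rank 3360, at 6551347 to 6551716, was centred 26 bp from the region and had no replicate 2 partner. The best without a partner in replicate 1 were at 10006943 to 10007292 and at 6537233 to 6537582, with combined ranks 3684 and 3690 and replicate 2 partners of ranks 4404 and 4308. The others without one in replicate 1 were at 9045408 to 9045757, 5836218 to 5836567 and 3067233 to 3067582, whose replicate 2 partners had ranks 2301, 2917 and 3130. In replicate 2 no partner was found at 13065662 to 13066011, 5876884 to 5877233, 3104554 to 3104903 and 7067200 to 7067549, among others, where replicate 1 had ranks 3196, 3797, 3998 and 5025.

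By fold difference, the replicate ranks were closer to each other for the best regions of III than for the weakest ones. Over the 1186 regions with both partners Spearman's rho between the replicate ranks was 0.81, against 0.80 on I, 0.81 on II and IV, 0.79 on V and 0.70 on X. These are descriptions across regions of the same 2 libraries. How far selection by IDR sets these values was not tested. Over all entries of III matched between replicates, in the combined list or not, rho was 0.64. The ranks differed by a median of 1.36-fold over all of these and by 1.23-fold among the 100 best of III. Replicate 1 had the better rank in 579 regions, replicate 2 in 604 and neither in 3. For 156 regions (13.0%, background 13.1%) the best partner in replicate 1 ranked beyond 6064, and for 162 (13.5%, background 15.1%) the one in replicate 2 did.

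Among the 100 best regions of III the 5 with the largest ratio of ranks were still within 2.02-fold. They lay at 13070407 to 13070846 (ranks 239 and 483 in replicates 1 and 2), at 9765282 to 9765836 (10 and 20) and at 12598355 to 12598837 (86 and 49). The remaining ones were at 4587132 to 4587447 (286 and 484) and at 12583411 to 12583727 (237 and 401). Of these 5, 4 ranked better in replicate 1 and 1 in replicate 2. In contrast, the largest ratio on all of III was 6.75-fold, at 11660698 to 11661047, with ranks 26343 and 3900. That region has combined rank 5712 and was chosen after its values were seen. The 100 best were taken by combined rank, and how far that choice sets the contrast was not tested.

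**Figure D4:**
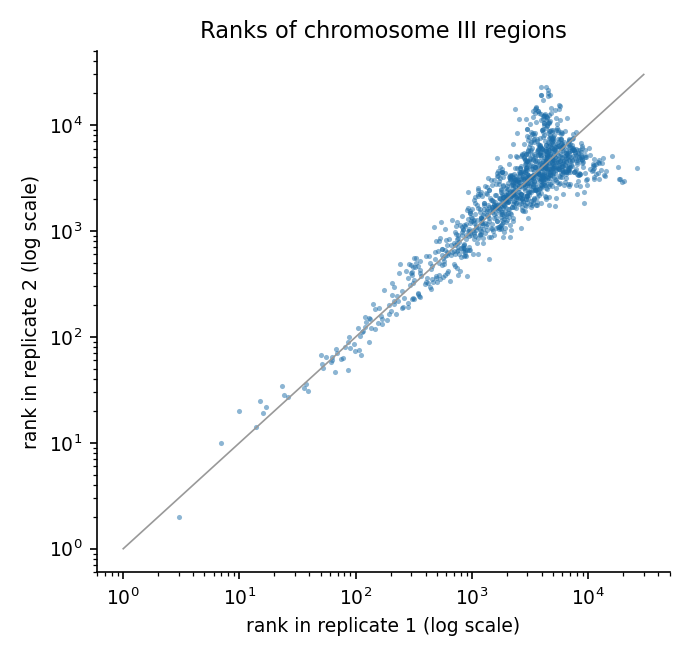
Rank in replicate 2 (vertical log axis) against rank in replicate 1 (horizontal log axis) for the 1186 regions of chromosome III with a partner in both lists; each point is a region and the grey line marks equal ranks. The median ratio of the replicate ranks was 1.17 for combined ranks 1 to 100, 1.36 for 251 to 500 and 1.32 for 2001 to 3000. It was 1.57 for combined ranks 5001 to 6064, and the largest ratio was at the region with ranks 26343 and 3900.

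Strong entries on III were nearly all shared by the replicates, and most of those beyond rank 20000 were not. Of the 5798 distinct entries of replicate 1 on III, 3584 (61.8%, 60.6 to 63.1) overlapped a replicate 2 entry, against 60.2% on the other chromosomes and a background of 60.5%. Of the 5697 of replicate 2, 3424 (60.1%, 58.8 to 61.4) overlapped a replicate 1 entry, against 57.7% elsewhere and a background of 58.2%. By rank, all 315 entries of replicate 1 up to rank 1516 were overlapped, and 314 of 315 in replicate 2. Among ranks 6065 to 10000 the shares were 76.7% and 71.7%, and beyond rank 20000 they were 39.9% and 38.7%. III followed the other chromosomes closely in each group, 75.3% and 74.3% for ranks 6065 to 10000 and 39.6% and 36.4% beyond rank 20000 in replicates 1 and 2. The replicate 1 entries of III were above the other chromosomes in all 6 groups, and those of replicate 2 in 3 of 6.

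**Figure D5:**
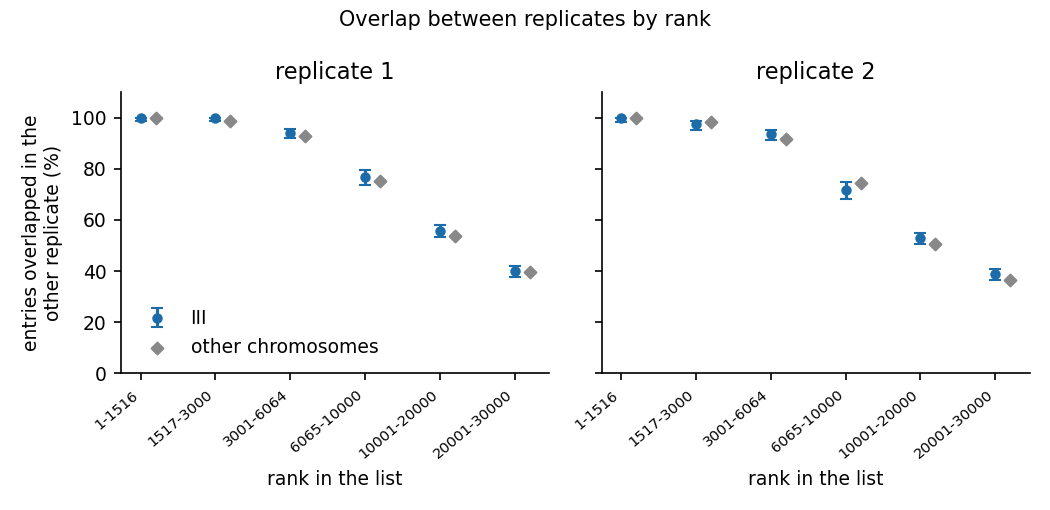
Share of entries that overlap an entry of the other replicate by at least 1 bp (vertical axis, percent), by rank in replicate 1 (left panel) and replicate 2 (right panel). Circles are chromosome III with 95% Wilson intervals and diamonds the other 5 chromosomes; the share on III was near 100% up to rank 3000 and 39.9% and 38.7% beyond rank 20000.

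A number of entries were shared by the replicates on III and had no combined region. In replicate 1 these were 2200 of the 3584 shared entries, with a median rank of 15490. In replicate 2 they were 2127 of 3424, with a median rank of 15005. Counts for the other chromosomes are not given here, so whether III differs from them cannot be told. With only the best 6064 entries of each list, 12 such entries of replicate 1 were left. The best were at 10064171 to 10064319 (ranks 1253 and 1217 in replicates 1 and 2) and at 6116571 to 6116691 (ranks 1781 and 1089), positions as in replicate 1. Both were narrow, 149 and 121 bp, and far from the nearest combined region, 28.3 and 16.9 kb away. Why they are not in the combined list is not recorded. Conversely, the best replicate 2 entry on III without a partner in replicate 1 was at 6710127 to 6710214, with rank 1317 and a width of 88 bp. It lay inside one of the 6 long stretches without a combined region. These 3 entries were chosen after their values were seen.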

How the data were processed

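ChIP samples of LSY-2 from fed L1 larvae were analysed through 3 deposited peak lists, the combined one and 1 per replicate. Coordinates follow WormBase WS220, per the file headers, and the source field names SPP, a peak caller, and the irreproducible discovery rate (IDR), which compares ranks between replicates. The sources used here give no aligner, versions, thresholds or use of the input. The score that the authors deposited for each entry has no named scale and was used only within a list. Per the labels' protocols, chromatin was crosslinked with 2% formaldehyde, sonicated and immunoprecipitated with anti-GFP antibodies. Depth is unknown.

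Distinct intervals were placed by centre. A partner is the best-ranked overlapping entry (at least 1 bp) of a replicate list. For values per replicate, the best 6064 entries were used, as many as the combined list holds; these include a few mitochondrial entries, which were left out. Spans are the largest end in any list. Intervals are 95% Wilson intervals, cover counting error only, and treat neighbouring regions as independent. Overlap and neighbour counting was tested on simulated data. Python 3.11.15, pandas 2.3.3 and SciPy 1.17.1 were used.

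The regions and the comparisons were chosen with earlier results of these data known. Named regions are the 10 best-ranked on III, the 5 of the best 100 with the largest rank ratio, up to 5 without a partner in each replicate, the 3 widest, the 3 longest stretches between regions, the 3 fullest windows of 100 kb, and the 3 fullest bins of 1 Mb and the emptiest. The groups of rank, the best 100 of the genome and the chains were set after the lists had been seen. Genes and sequences under the regions were not analysed, because the gene table at hand (RefSeq, WBcel235) is on another build and builds were not mixed.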

Additional observations from a re-analysis of the deposited data

How the results depend on the processing

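The density of 86.9 regions per Mb on III was 86.3 to 88.97 with either replicate alone, 44.4 for the best-ranked 3032 of the combined list and 23.4 for the best-ranked 1516, as fewer regions enter; the ratio to the other chromosomes was 1.55 in the whole list, 1.59 and 1.70 in these groups and 1.54 and 1.60 in replicates 1 and 2. The central to outer ratio of 1.38 was 1.41 to 1.42 with either replicate alone, 1.63 for the central 50% of the chromosome against the rest and 1.51 for the best 1516. The 99.0% of regions with partners in both replicates fell to 82.5% with a reciprocal overlap of 50% and to 74.0% with only the best 6064 entries of each replicate; it was 100% for the best 3032 regions, and 99.4 to 99.6% for a partner in a single replicate. Rank agreement (rho 0.81) was 0.76 with reciprocal overlap, 0.35 with scores and 0.64 over all entries matched between replicates. The share among the best 1516 (27.0%) was 25.7 to 26.5% with either replicate alone, and 10.4% were among the best 505, against 8.35% of all regions. Close neighbours (17.4%) were 2.84% within 500 bp, 40.9% within 2 kb and 20.2 to 20.8% with either replicate alone. The median width of 350 bp was 320 to 370 bp in the replicates and 252 bp for the best 1516. The 2200 shared entries outside the combined list were 1558 with a reciprocal overlap of 50% and 12 among the best 6064 of each replicate. The central to outer ratio stayed above 1 in all of its settings. No paired analysis was possible because the inputs, which share replicate numbers with the ChIP samples, have no lists analysed here. Depth limits how far weak entries can be read, and the lists do not give it.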
